A study of Mus musculus with 10 samples.

Results

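The genes described here encode the chains of collagens and laminins, the numbered integrin subunits and 5 further proteins, fibronectin (Fn1), Sparc, Tgfbi, decorin (Dcn) and vimentin (Vim), in 5 cell lines of mouse small cell lung cancer (SCLC). They were chosen by name alone, with a pattern for the symbols Col, Lam, Itga and Itgb followed by a number, and the pattern with the 5 added names picked 84 of the 24391 genes in the count files. The collagens comprise 11 fibril-forming chains, 9 chains of basement membranes and other networks, 8 beaded-filament and anchoring chains, 9 fibril-associated chains and 7 membrane-spanning or multiplexin chains. The laminins comprise 5 alpha, 3 beta and 3 gamma chains, and the integrins 12 alpha and 9 beta subunits. The pattern also caught 3 genes that are not subunits, Itgb1bp1, Itgb1bp2 and Itgb3bp, which encode proteins named for binding integrin beta chains. Integrin subunits with letters in their symbols, such as Itgav, are outside the pattern and are given apart.

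Each line gave 1 RNA-seq library from cells in doxycycline (MYCN on) and 1 from cells kept without it for 4 days (MYCN off). All 5 lines, G9577, G4314, G9351, G9488 and G9529, came from mouse SCLC tumours with the labelled genotype Rb;p53,TRE-MYCN, LSL-RTTA, that is, altered Rb and p53 tumour suppressor genes, a MYCN transgene behind a tetracycline-responsive element, and a doxycycline-dependent activator behind a lox-stop-lox cassette. The Cre driver and the age of the animals are not given in the sources used here. No culture received doxycycline without carrying the transgene, so an effect of the drug and an effect of MYCN cannot be told apart. Libraries held 9586465 to 11960074 counts with MYCN on and 9928420 to 11123998 with MYCN off. Levels are CPM, the counts of a gene set against the total of its library and scaled with TMM factors, and a log2 change is the MYCN-on level over the MYCN-off level, so that a negative one means lower with MYCN on.

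Collagens are triple helices of 3 chains. Fibril-forming types give tissues tensile strength, type IV forms the sheet of basement membranes, and type VI forms beaded filaments around cells. Laminins are heterotrimers of an alpha, a beta and a gamma chain that organise the basement membrane, and integrins are receptors of an alpha and a beta subunit that bind laminins, collagens or fibronectin at the cell surface. Classic SCLC is a neuroendocrine epithelial tumour whose cells in culture often grow as floating clusters, whereas fibronectin, fibrillar collagens, Sparc and vimentin, an intermediate filament protein, are typical products of mesenchymal cells.

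Line G9577 stood apart from the other 4 lines in the genes that define the labelled cell type, which bears on every result below. The neuroendocrine marker list of 16 genes summed to 223 CPM (on) and 192 CPM (off) in G9577, against 4173 to 4887 CPM on and 6522 to 8588 CPM off in the other lines. The epithelial adhesion gene Epcam was at 1.005 CPM on and 3.89 CPM off in G9577, against 654 to 870 CPM elsewhere. Of the neuroendocrine list, Dll3 had 0 counts in both G9577 libraries, while Ncam1 remained at 97.9 and 121 CPM and Uchl1 at 116 and 16.8 CPM.

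Markers of mesenchymal cells moved the other way; the fibroblast list holds 2 of the collagen chains, Col1a2 and Col3a1. The summed level of the fibroblast list of 12 genes was 312 CPM on and 1888 CPM off in G9577 and at most 19.2 CPM in any other library, and that of 8 smooth muscle and pericyte genes was 878 CPM on and 2641 CPM off against at most 29.2 CPM. The actin gene Acta2 made up 793 and 2349 CPM of these sums in G9577, and the growth factor receptor gene Pdgfrb reached 123 and 1047 CPM. Within the same lists, Thy1, Mfap5 and Pdpn had 0 counts in G9577. The endothelial genes Cdh5, Tie1, Emcn and Cldn5 and the leukocyte genes Ptprc, Adgre1, Cd3e, Cd3g and Spi1 also had 0 counts there. Other genes of these lists were present in G9577: the vascular receptor gene Kdr was at 34.7 CPM on and 127 CPM off, with at most 2 counts in any other library, and Erg at 3.56 and 30.3 CPM. Of the leukocyte list, Lyz2 had 1 count on and 494 off in G9577 and Cd14 had 22 and 73. The part of any other cell type in these results was not tested, and in bulk RNA fewer cells of a type and less RNA per cell cannot be told apart. The Mycn transcript was higher with doxycycline in G9577, at 958 CPM on and 83.5 CPM off, as it was in the other lines, at 496 to 887 CPM on and 27.5 to 190 CPM off. The labels do not state which species the transgene comes from, and reads of the transgene and of the mouse gene cannot be told apart in these values.

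The matrix and integrin genes took up a larger share of the RNA in G9577 than in the other lines. Their counts were 1.06% of the library with MYCN on and 2.78% with MYCN off in G9577. In the other 4 lines they were 0.143% to 0.176% of counts with MYCN on and 0.159% to 0.222% with MYCN off. In G9577 57 of the 84 genes had at least 10 counts with MYCN on and 62 with MYCN off, against 28 to 37 genes on and 36 to 45 genes off in the other lines.

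**Figure D1:**
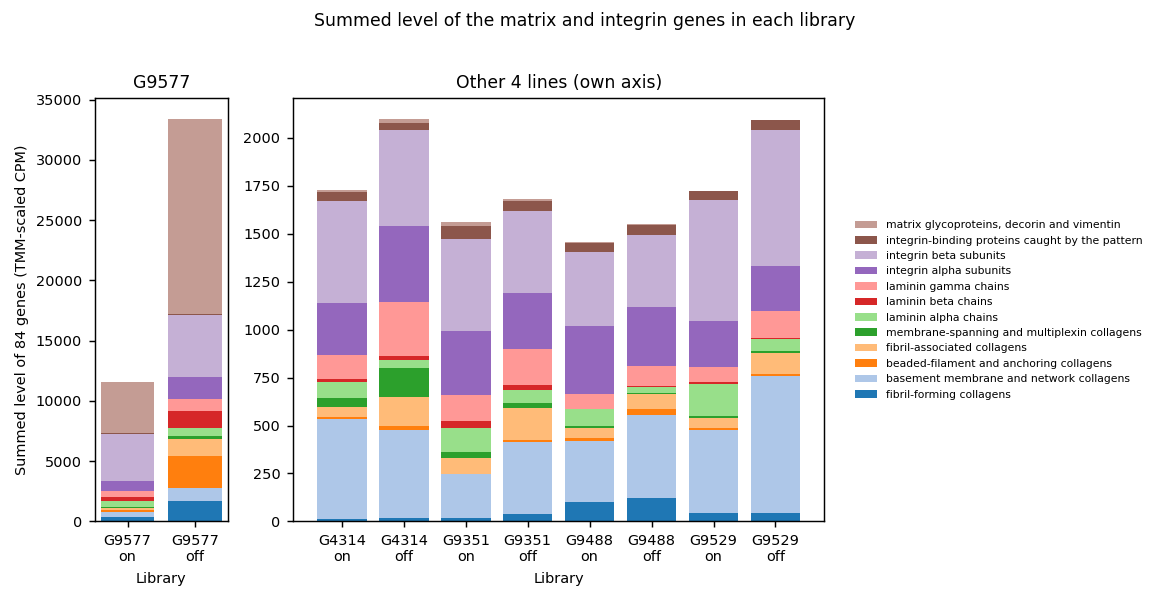
Stacked bars show the summed TMM-scaled CPM of the 84 genes in each library, coloured by role, with G9577 on the left and the other 4 lines on their own axis. The sums were 11550 CPM (on) and 33430 CPM (off) in G9577 and between 1456 and 2099 CPM in the other 8 libraries.

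Composition differed as well as amount. In G9577 the group of fibronectin, Sparc, Tgfbi, decorin and vimentin summed to 4234 CPM on and 16210 CPM off, against 1.34 to 22.0 CPM in the other libraries. Integrin beta subunits summed to 3931 and 5210 CPM in G9577, against 377 to 709 CPM elsewhere. Beaded-filament and anchoring collagens summed to 215 and 2643 CPM in G9577 and to 2.96 to 33.4 CPM elsewhere. Basement membrane and network collagens overlapped with the other lines only with MYCN on. They were at 381 CPM on in G9577, within the 227 to 713 CPM of the other libraries, but at 1084 CPM off, above them. Col8a2 made up 517 CPM of that off sum.

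Between genes, levels were compared per exon length, as RPKM from the scaled counts. In G9577 the order, by the mean of the 2 libraries, began with Vim at 1606 RPKM, Itgb1 at 983, Fn1 at 673, Sparc at 604 and Col6a1 at 243 RPKM. Lamb2 followed at 133, Col6a2 at 116, Lamc1 at 96.3, Itga3 at 94.9, Itgb5 at 91.6, Col1a1 at 61.1 and Col8a2 at 60.1 RPKM. The on and off libraries of G9577 differed by more than many neighbours in that order: Fn1 was at 176 RPKM on and 1170 RPKM off, and Vim at 876 on and 2335 off. In the other 4 lines the order began with Itgb1 at 119 ± 29.2 RPKM (SD, n = 4 lines), Itga6 at 32.8 ± 6.24, Col4a2 at 28.2 ± 7.38 and Col8a1 at 23.1 ± 15.6 RPKM. Then came Col9a2 at 20.04 ± 14.4, Col4a1 at 20.02 ± 4.94, Itga3 at 14.9 ± 4.95 and Lamc1 at 13.7 ± 2.13 RPKM. In the second order Itgb1, the common beta subunit of most matrix-binding integrins, was above Itga6 by more than the spread between lines, whereas from Itga6 to Col4a1 each gene lay within the spread of the next. Col4a1 was above Itga3 by just over the SD of either, and Itga3 and Lamc1 lay within each other's spread.

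**Figure D2:**
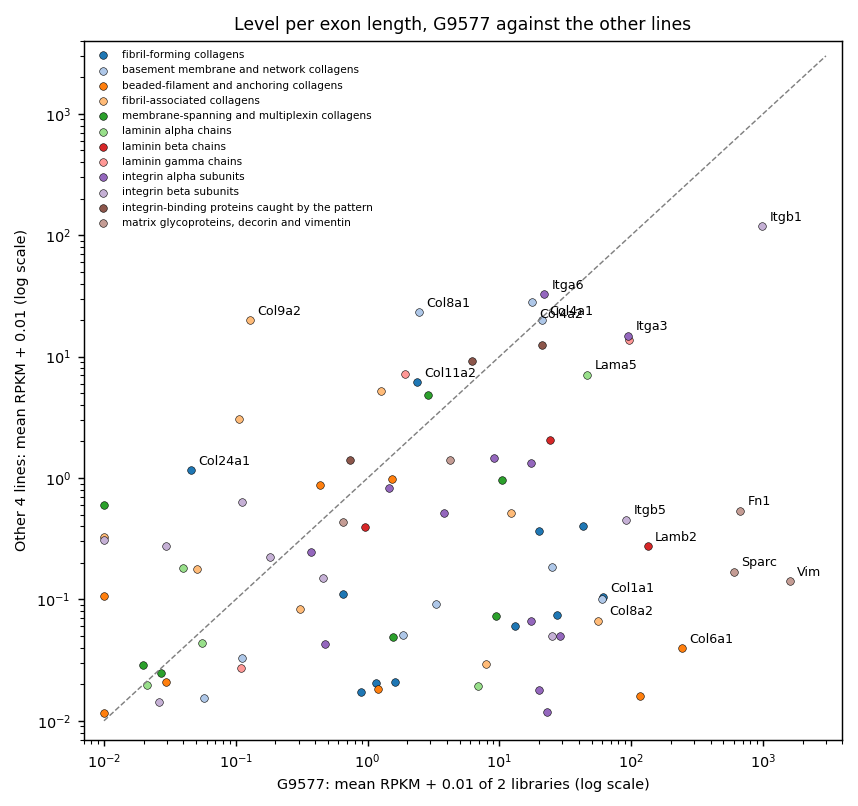
Each point is 1 of the 84 genes, at its mean RPKM plus 0.01 in G9577 (horizontal, log scale) and over the other 4 lines (vertical, log scale), coloured by role, with a dashed line of equality. Vim, Fn1, Sparc and Col6a1 lie far to the right of the line, Col4a1 lies on it, and Col8a1 and Col9a2 lie to its left.

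Promoter sequences are shown for 5 genes whose patterns differ: Vim, Sparc and Col6a1, which were high in G9577, Col8a1, which was high in the other lines and lower with MYCN on, and Lama5, the 1 gene that was higher with MYCN on. RefSeq promoter windows (build GRCm38.p6, 250 bases before to 50 after the start of the gene) were at hand for 61 of the 84 genes. Each window is written 5′ to 3′ on the strand of its gene. Capitals mark letters that match, on either strand, the MYC E-box CACGTG, the TATA box TATAAA, the AP-1 site TGANTCA, the GC box GGGCGG or the TEAD site GGAATG. The windows lie at chr2:13574061-13574360 (plus strand) for Vim, chr11:55420031-55420330 (minus) for Sparc, chr10:76725995-76726294 (minus) for Col6a1, chr16:57754688-57754987 (minus) for Col8a1 and chr2:180225810-180226109 (minus) for Lama5.
Vim: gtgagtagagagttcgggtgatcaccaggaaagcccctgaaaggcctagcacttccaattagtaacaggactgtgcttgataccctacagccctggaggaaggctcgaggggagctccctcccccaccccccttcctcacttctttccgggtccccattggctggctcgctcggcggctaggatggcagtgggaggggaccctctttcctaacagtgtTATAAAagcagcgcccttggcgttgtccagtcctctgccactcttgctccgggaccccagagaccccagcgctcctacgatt
Sparc: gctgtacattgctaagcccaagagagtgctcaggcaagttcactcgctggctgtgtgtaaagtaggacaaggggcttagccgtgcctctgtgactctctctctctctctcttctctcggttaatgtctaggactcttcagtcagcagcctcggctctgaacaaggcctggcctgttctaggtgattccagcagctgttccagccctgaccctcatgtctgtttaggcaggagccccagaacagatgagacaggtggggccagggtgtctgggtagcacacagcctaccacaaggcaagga
Col6a1: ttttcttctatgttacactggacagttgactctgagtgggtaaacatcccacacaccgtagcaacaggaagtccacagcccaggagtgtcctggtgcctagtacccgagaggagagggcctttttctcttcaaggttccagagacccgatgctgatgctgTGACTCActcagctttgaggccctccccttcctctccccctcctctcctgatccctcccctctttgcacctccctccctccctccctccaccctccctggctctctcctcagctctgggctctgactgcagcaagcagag
Col8a1: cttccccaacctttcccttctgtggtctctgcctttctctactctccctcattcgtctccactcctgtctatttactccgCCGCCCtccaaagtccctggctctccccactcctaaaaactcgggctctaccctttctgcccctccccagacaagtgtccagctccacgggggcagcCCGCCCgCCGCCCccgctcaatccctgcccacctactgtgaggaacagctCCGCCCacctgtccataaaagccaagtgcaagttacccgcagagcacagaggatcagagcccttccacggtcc
Lama5: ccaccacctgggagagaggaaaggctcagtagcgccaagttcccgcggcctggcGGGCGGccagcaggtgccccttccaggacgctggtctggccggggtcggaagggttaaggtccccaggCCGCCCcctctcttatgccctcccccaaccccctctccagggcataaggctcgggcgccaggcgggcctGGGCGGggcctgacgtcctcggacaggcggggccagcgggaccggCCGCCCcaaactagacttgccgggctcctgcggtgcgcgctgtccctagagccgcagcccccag

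The Vim window held 1 TATA box, the Col6a1 window 1 AP-1 site, the Col8a1 and Lama5 windows 4 GC boxes each, and the Sparc window none of the 5 motifs. The E-box CACGTG was in 0 of the 67 promoter windows of the 61 genes, against 7.15% of all 32851 windows. The GC box was in 34 of the 67 windows (50.7%), against 35.7% of all windows. The TATA box was in 8.96% against 13.6%, the AP-1 site in 4.48% against 7.81%, and the TEAD site in 11.9% against 14.7%. These are counts of letters in short windows and are not evidence of binding or its absence.

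G9577 was then compared with the other 4 lines, with the counts of a line's 2 libraries summed so that the line is the unit. The line was singled out with earlier results of these data known, and it is a single line, assumed in the fit to vary like the others, so its p-values describe these 5 lines. Of the 84 genes, 70 passed the filter on low counts and were tested, and 24 of the 70 passed only through G9577 and could hardly do other than be high there. By edgeR's quasi-likelihood test, with p adjusted after Benjamini and Hochberg over 14456 genes, 34 of the 70 were higher in G9577, where 10.1% of all genes tested were, and 0 were lower, where 9.08% of all genes were. At an unadjusted p under 0.05, 5 were lower, and DESeq2 called 6 lower. Among the 46 genes that passed the filter without G9577, 11 were higher (23.9%), against 7.73% of all genes that passed that way.

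Fibronectin, the adhesive glycoprotein that integrins bind in provisional matrix (mm9 chromosome 1, 71632047 to 71699808, minus strand), had 16237 counts with MYCN on and 91138 with MYCN off in G9577. The other lines had 67, 193, 16 and 4 counts on and 33, 41, 10 and 6 counts off (G4314, G9351, G9488 and G9529). Both G9577 libraries were thus far above the other 8, and the log2 difference was 10.17 (SE 1.44, adjusted p = 0.0108). Sparc, a collagen-binding secreted glycoprotein (mm9 chromosome 11, 55207661 to 55233582, minus strand), had 12420 and 19026 counts in G9577 and 0 to 10 counts in the other libraries. Vim had 17583 and 39607 counts against 0 to 5. Both were at background in the other 4 lines and among the most abundant transcripts of G9577, and both passed the filter only through it.

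Collagen VI, whose chains assemble into beaded microfibrils, showed the same contrast. Col6a1 had 1529 counts on and 16573 off in G9577, and 0 to 5 in the other libraries. Its partner Col6a2 had 595 and 7529 counts in G9577 and at most 1 elsewhere. The third chain, Col6a3, had only 62 and 186 counts in G9577. Per exon length, Col6a1 stood to Col6a2 at a ratio of 2.41 on and 2.06 off, but to Col6a3 at 67.2 on and 243 off. The chains of one collagen were thus not at even levels in this line, and the same held for type I collagen, with a ratio of Col1a1 to Col1a2 of 20.7 on and 40.5 off, and for type V, with a ratio of Col5a1 to Col5a2 of 22.4 on and 98.3 off.

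Of 10 fibrillar chains tested, 6 were higher in G9577, where 10.1% of all genes were, but 5 of the 6 passed the filter only through that line. Of the 5 chains that passed without it, only Col5a1 was higher. Col1a1, the major chain of type I collagen, had 454 and 4923 counts in G9577 and 1 to 22 elsewhere. Col5a1, a chain of the type V collagen that starts fibrils, had 2357 and 4743 counts in G9577. In the other lines it had 10, 22, 4 and 6 counts on and 27, 185, 4 and 27 off, well below G9577 in each. Its log2 difference of 6.63 (SE 1.33, adjusted p = 0.0281) was no longer past the threshold without G4314 or without G9529, with an adjusted p of up to 0.0847.

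The laminin pattern was of chains that differed in degree. Lamb2, the beta chain of vascular, synaptic and kidney basement membranes, was at 282 CPM on and 1214 CPM off in G9577 and at most 4.39 CPM elsewhere. Lamc1, the gamma chain of most laminins, was at 477 and 991 CPM in G9577 and at 75.98 to 133 CPM elsewhere, a log2 difference of 2.70 (SE 0.22, adjusted p = 0.00251). Lama5, an alpha chain of epithelial and vascular basement membranes, was at 484 and 574 CPM in G9577 and at 26.2 to 166 CPM elsewhere, a log2 difference of 2.64 (SE 0.41, adjusted p = 0.0141). None of these 3 genes overlapped between G9577 and the other lines. Lama2 went the other way without passing the threshold, at 0.366 and 0.216 CPM in G9577, below all of the other lines by CPM. These are only 4 and 2 counts, and G9351 with MYCN on also had 4.

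Among integrins, 7 of 12 alpha and 3 of 6 beta subunits tested were higher in G9577, but 6 of these 10 passed the filter only through that line. Of the 12 subunits that passed without it, 4 were higher, Itga3, Itga10, Itgb1 and Itgb5, against 7.73% of all such genes. Itgb1 was at 3816 CPM on and 4428 CPM off in G9577, against 522, 473, 382 and 624 CPM on and 484, 417, 371 and 702 CPM off, a log2 difference of 2.97 (SE 0.32, adjusted p = 0.00547). Itga3, whose product pairs with Itgb1 to bind laminins, was at 424 and 575 CPM against 56.2 to 156 CPM (log2 difference 2.57, SE 0.37, adjusted p = 0.0116). The fibronectin receptor subunit Itga5 had 666 and 1045 counts in G9577 and 0 or 1 in every other library. Itga6, another laminin receptor subunit, was at 147 and 117 CPM in G9577 and 153 to 265 CPM elsewhere, so that both G9577 libraries were below the other 8, but the log2 difference of -0.64 did not pass (SE 0.29, adjusted p = 0.183). Of the letter-named subunits 3 were tested, and 0 were higher and 1 was lower in G9577. Itgav, which forms fibronectin and vitronectin receptors, was at 152 and 412 CPM in G9577 and at most 10.6 CPM elsewhere. Its difference did not pass (adjusted p = 0.104). Itgal had 0 counts in both G9577 libraries and 4 to 18 in the others. It was the 1 that was lower (log2 difference -7.43, SE 1.56, adjusted p = 0.0316). Itgae hardly differed, with a log2 difference of 0.03.

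In 38 of the 70 tested genes both G9577 libraries were above all 8 others, where 17.7% of all genes were. For the 46 that passed without G9577 the number was 15 (32.6%), against 14.9% of all such genes. Both G9577 libraries were below all 8 others by CPM in 9 of the 70 genes, where 18.4% of all genes were. All 9 were among the 46 that passed without G9577 (19.6%), against 19.2% of all such genes, a share near the background. These 9 were Col8a1, Col9a2, Col9a3, Col19a1, Col22a1, Itga6, Itgb6, Itgb8 and Lama2, named after their values were seen. Col22a1, a collagen of tissue junctions, had 0 counts in both G9577 libraries against 4 to 51 in the others. Col4a1 and Col4a2 are the pair that makes the common type IV collagen, and they start 2 bases apart on opposite strands. Their levels in G9577 lay within the range of the other lines. Col4a1 was at 173 and 108 CPM in G9577 and 76.9 to 229 CPM elsewhere, and Col4a2 at 111 and 116 CPM against 110 to 248 CPM.

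**Figure D3:**
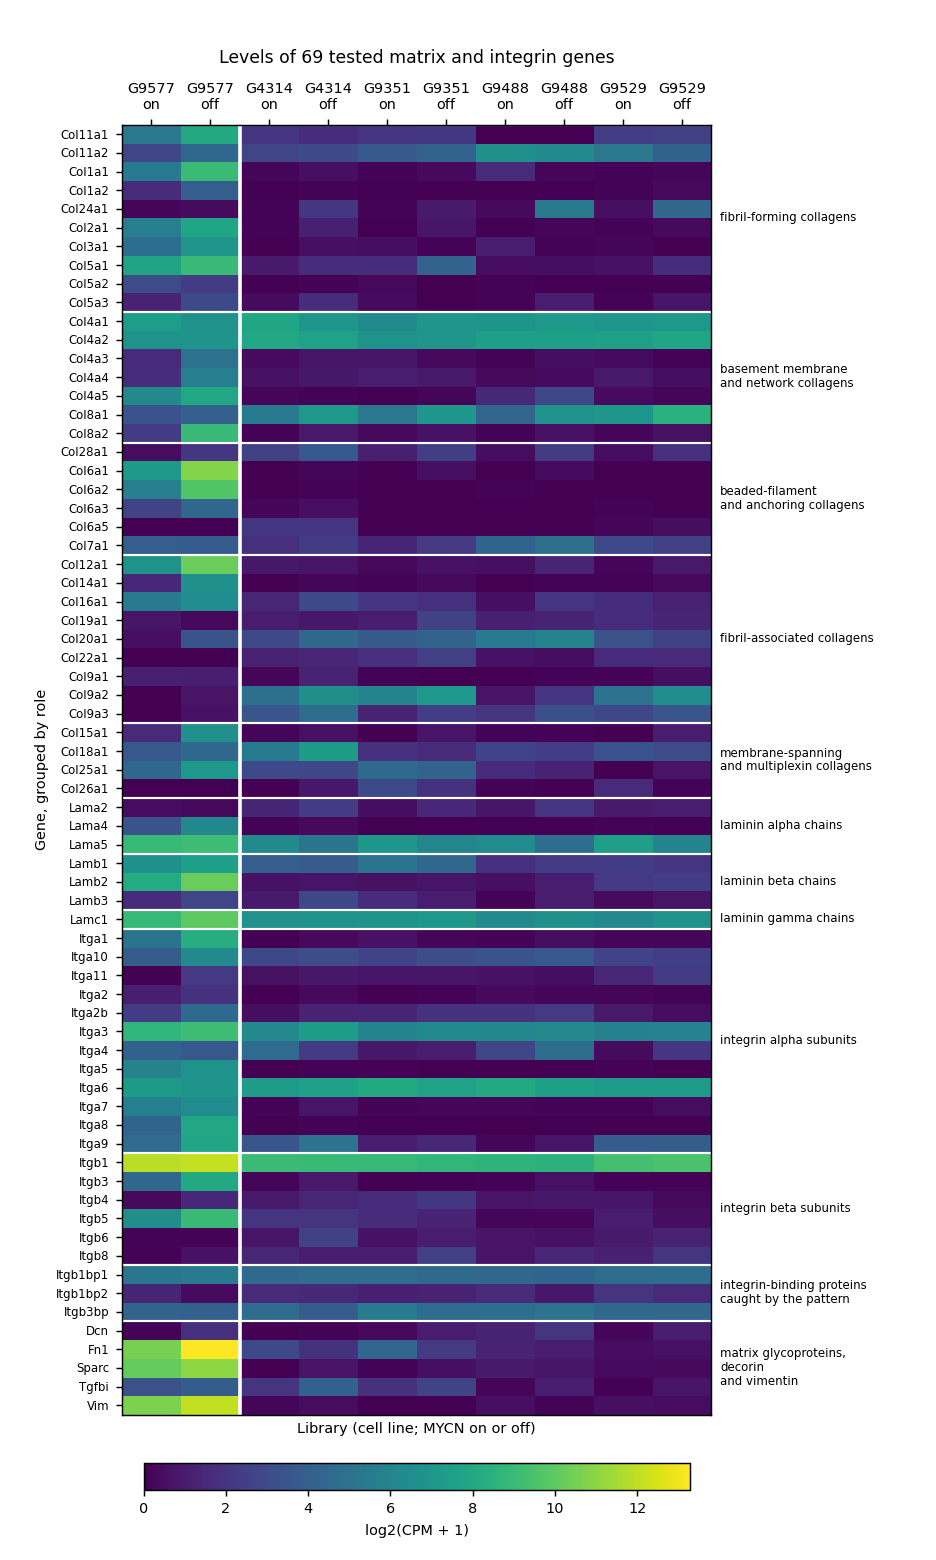
Rows are 69 of the 70 tested genes grouped by role, columns are the 10 libraries with G9577 at the left, and the colour is log2(CPM + 1). Most rows are brighter in the 2 G9577 columns, Col4a1, Col4a2 and Itga6 are bright across all columns, and Col8a1, Col9a2 and Col9a3 are brighter in the other 4 lines.

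The effect of MYCN was then tested across all 5 lines, with the line as a block that pairs each on library with its off library. Its p-values measure the spread between 5 lines, each with 1 culture on and 1 off, where a gene is counted in several lines. For a gene counted almost only in G9577, they rest on the 1 pair of that line and measure no spread between lines. The labels do not say whether cultures were repeated. Of the 70 genes, 22 were lower with MYCN on (31.4%), where 15.1% of all 14456 genes tested were, and 1 was higher (1.43%), where 14.0% of all genes were. Their median log2 change was -0.99, against -0.12 over all genes. Without the line block 0 were called in either direction in edgeR's test, with 0 higher and 4 lower at an unadjusted p under 0.05.

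Part of this count came from G9577. Of the 23 genes called, 10 did not pass the filter without that line, and 5 had 10 or more counts in the libraries of 1 line only. With G9577 left out, 46 of the genes were tested among 13837, and 10 were lower (21.7%) and 1 higher, where 16.7% and 16.6% of all genes were. The share of lower genes was then near the background, and the median log2 change was -0.44, against -0.03 over all genes. In all, 10 genes were called both with and without G9577, among them Lama5, which was higher, and Col5a1, Col8a1, Col9a2, Col9a3, Col24a1, Col28a1, Dcn and Tgfbi, which were lower.

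Col8a1, a short-chain network collagen of vessel walls and the corneal Descemet membrane (mm9 chromosome 16, 57624369 to 57754850, minus strand), fell with MYCN on in all 5 lines. It was at 44.9, 37.8, 18.7, 125 and 9.14 CPM with MYCN on, against 133, 126, 110, 349 and 15.8 CPM with MYCN off, in G4314, G9351, G9488, G9529 and G9577. Each on library was below its own off library, but the groups overlapped because the lines differ in level. The log2 change was -1.63 (SE 0.23, adjusted p = 0.00483), and without G9577 it was -1.81 (SE 0.19, adjusted p = 0.00139). Its partner chain Col8a2 had 1, 2, 1, 2 and 43 counts on and 10, 6, 6, 6 and 4779 off in the same line order. Per exon length, the ratio of Col8a1 to Col8a2 in G9577 was 1.97 on and 0.0259 off, so that the order of the 2 chains turned round within that line.

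Fibril-forming chains included 4 that fell of 10 tested, beside 15.1% of all genes. Of these 4, Col2a1 and Col1a2 passed the filter only through G9577. Col24a1, a minor fibrillar collagen (mm9 chromosome 3, 144955436 to 145214969, plus strand), had 1, 1, 3, 5 and 2 counts on against 37, 10, 408, 240 and 3 counts off in G4314, G9351, G9488, G9529 and G9577. The 4 lines other than G9577 had at most 5 counts with MYCN on and at least 10 with MYCN off, and G9577 had close to none in either. The log2 change was -5.18 (SE 0.78, adjusted p = 0.00545), and without G9577 it was -5.83 (SE 0.50, adjusted p = 0.00105). Col5a1 was at 0.974, 2.17, 0.373, 0.572 and 215 CPM on against 2.38, 17.3, 0.394, 2.33 and 513 CPM off (log2 change -1.73, SE 0.35, adjusted p = 0.0121). It was lower with MYCN on in each line other than G9488, where both libraries had 4 counts. Col2a1, the cartilage collagen, and Col1a2 also fell, with adjusted p of 0.00723 and 0.0442, mainly through G9577, where Col2a1 had 542 counts on and 2130 off and Col1a2 had 24 on and 133 off. The call for Col1a2 was lost in DESeq2, with no filter on low counts, and without G4314, G9351, G9488 or G9529 (adjusted p of up to 0.0993). Col1a1 did not pass in the fit over all lines (log2 change -1.53, SE 1.12, adjusted p = 0.324).

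Fibril-associated collagens, which decorate fibrils or link them to their surroundings, included 4 that fell of 9 tested, beside 15.1% of all genes. Of these 4, Col12a1 and Col14a1 passed the filter only through G9577. Col9a2, a chain of the cartilage collagen type IX, was at 28.7, 59.6, 0.652, 29.8 and 0 CPM on against 92.8, 136, 2.95, 89.9 and 0.649 CPM off. In each line the on library was lower, and G9577 was near 0 in both (log2 change -1.67, SE 0.27, adjusted p = 0.00685). Its partner Col9a3 was at 10.8, 1.38, 3.08, 6.196 and 0 CPM on against 24.5, 4.31, 8.46, 10.3 and 0.541 CPM off (log2 change -1.37, SE 0.37, adjusted p = 0.0316). The call for Col9a3 was lost without G4314, without G9351 or without G9488, with an adjusted p of up to 0.0956. Col12a1 and Col14a1 fell mostly through G9577, where Col12a1 was at 108 CPM on and 1212 CPM off and Col14a1 at 1.83 and 101 CPM. The call for Col12a1 was lost without G9351 (adjusted p = 0.0538).

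Of the beaded-filament and anchoring collagens, 3 of 6 tested fell, beside 15.1% of all genes. Col6a1 and Col6a2 rested on G9577 alone, the one line with 10 or more counts, where Col6a1 was at 140 CPM on and 1792 CPM off and Col6a2 at 54.4 and 814 CPM. Fitted log2 changes were -3.72 (SE 0.32, adjusted p = 0.00287) and -3.67 (SE 0.62, adjusted p = 0.0126), and DESeq2 did not call Col6a2. Col28a1, which has the domains of the type VI family, had 48, 13, 4, 4 and 4 counts on against 131, 49, 38, 29 and 30 off, lower with MYCN on in all 5 lines (log2 change -2.30, SE 0.40, adjusted p = 0.00815). Col15a1, a multiplexin of basement membrane zones, had 22 counts on and 913 off in G9577 and at most 13 in any other library (adjusted p = 0.0105). Col4a5 (adjusted p = 0.0429) lost its call without any one of G4314, G9351, G9488 or G9577.

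Laminin chains changed in opposite directions. Lama5 (mm9 chromosome 2, 179911078 to 179960564, minus strand) was at 78.7, 127, 87.0, 166 and 484 CPM on against 33.1, 66.7, 26.2, 61.4 and 574 CPM off in G4314, G9351, G9488, G9529 and G9577. In the 4 lines other than G9577 every on library was above every off library, while in G9577 the on library was the lower of the pair. The log2 change was 1.02 (SE 0.27, adjusted p = 0.0301) over 5 lines and 1.34 (SE 0.15, adjusted p = 0.00187) without G9577. It did not pass when any one of the other 4 lines was left out and G9577 kept, with an adjusted p of up to 0.0996. Lama3 had at most 7 counts in any library and was not tested, and Lamb3 had 10, 23, 1, 3 and 24 counts on and 72, 12, 11, 7 and 53 off (adjusted p = 0.141). Lamb2 fell with an adjusted p of 0.0493, a call lost without any one of G4314, G9351, G9488 or G9577, and Lamc1 did not pass (log2 change -0.46, SE 0.16, adjusted p = 0.0624).

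Of the integrin subunits, 3 of 18 tested fell, a share near the 15.1% of all genes that did. Itgb3, the beta subunit of the platelet and vitronectin receptors, and the alpha subunits Itga8 and Itga9 fell, and the rest were not called. In G9577 Itgb3 was at 20.9 CPM on and 269 CPM off, Itga8 at 18.3 and 247 CPM, and Itga9 at 23.7 and 223 CPM. The call for Itga9 was lost without G4314, G9351, G9488 or G9577, with an adjusted p of up to 0.133. Itgb3 and Itga8 had at most 10 counts in any library of another line, and DESeq2 did not call Itga8. The abundant subunits hardly moved: the log2 change was -0.01 for Itgb1 (SE 0.13, adjusted p = 0.957), 0.21 for Itga6 (SE 0.14, adjusted p = 0.284) and -0.40 for Itga3 (SE 0.16, adjusted p = 0.104). Type IV collagen Col4a1 and Col4a2 had log2 changes of 0.08 (SE 0.24) and -0.03 (SE 0.12), with adjusted p of 0.81 and 0.89.

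Among the remaining glycoproteins, Tgfbi, a secreted adhesion protein named for its induction by TGF-beta, had 30, 27, 2, 0 and 95 counts on against 186, 60, 12, 8 and 128 off. It was lower with MYCN on in all 5 lines (log2 change -1.73, SE 0.49, adjusted p = 0.0356). The small collagen-binding proteoglycan gene Dcn had 0, 2, 16, 2 and 1 counts on against 1, 11, 31, 12 and 24 off (log2 change -2.30, SE 0.60, adjusted p = 0.0283). Tgfbi lost its call without any one of the 4 lines other than G9577, with an adjusted p of up to 0.135, and Dcn without G4314, G9351 or G9529, with one of up to 0.0817. Sparc (log2 change -0.80, SE 0.42, adjusted p = 0.183) and Vim (-0.79, SE 0.48, adjusted p = 0.244) did not pass, and outside G9577 they had too few counts to follow.

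**Figure D4:**
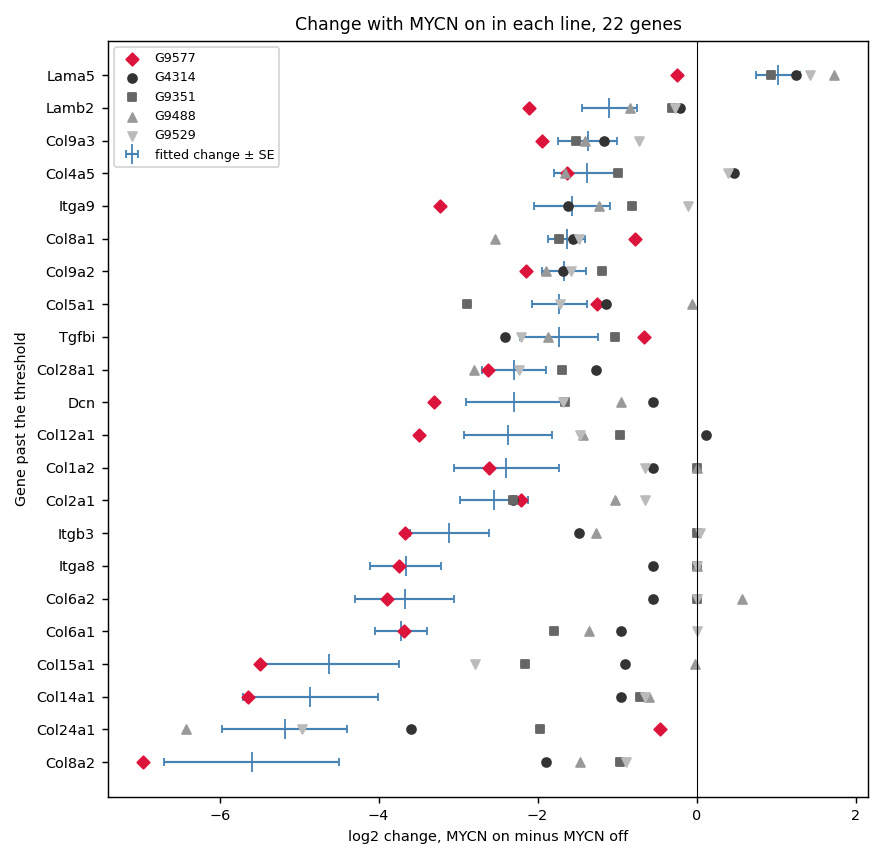
For 22 of the 23 genes past the threshold, points give the log2 change (MYCN on minus off) in each line, with G9577 as red diamonds, and blue bars the fitted change ± SE. Lama5 is the one gene to the right of 0 for 4 lines, and in Col8a2, Col14a1 and Col15a1 the G9577 point lies far to the left of the other lines. In those lines these genes had at most 10, 3 and 13 counts in a library, so that the changes there are poorly measured.

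Within single lines, with no test possible on 1 library per condition, more of these genes were at least 2-fold lower with MYCN on than the background share. Counting genes with at least 10 counts in 1 of the 2 libraries, 42 of 64 were 2-fold lower in G9577, where 29.4% of all genes were. In G4314 the number was 23 of 46 (background 17.3%), in G9351 13 of 42 (12%), in G9488 15 of 40 (10.1%) and in G9529 13 of 40 (9.47%). At least 2-fold higher were 1 gene in G9577, where 15.0% of all genes were, and 3, 2, 4 and 3 genes in G4314, G9351, G9488 and G9529, where 12%, 10.2%, 5.69% and 7.99% were. The median log2 change of these genes was -2.10 in G9577, against -0.30 over all genes, and -0.86, -0.50, -0.40 and -0.15 in the other 4 lines in the same order, against -0.06, -0.02, -0.01 and 0.01 over all genes.

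Whether G9577 responded to MYCN differently from the other lines was tested by an interaction term. The change was lower in G9577 for 10 of the 70 genes (14.3%), where 4.6% of all genes were, and higher for 0, where 1.29% were. Of the 10, 3 passed the filter only through G9577, namely Col8a2, Col4a4 and Col1a1. Among the 46 genes that passed without it, 7 were lower, where 644 of all 13837 such genes were. At an unadjusted p under 0.05, 2 of the 70 genes were higher and 23 lower, and DESeq2 called 2 higher and 15 lower. Without G9351 edgeR called 0 of the genes, with 4 higher and 18 lower at an unadjusted p under 0.05. All 10 differences kept their sign without G9351 and shifted by at most 0.66 on the log2 scale, with adjusted p of 0.0625 to 0.104. Each fit without a line has fewer residual degrees of freedom, and the cause of the loss was not tested. Without G9488 it called 4, without G9529 6 and without G4314 16.

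Fn1 was the most abundant of the 10. Its level with MYCN on was 1484 CPM in G9577, against 9854 CPM off, whereas in G4314, G9351, G9488 and G9529 it was at 6.52, 19.0, 1.49 and 0.381 CPM on against 2.91, 3.84, 0.984 and 0.517 CPM off. It was lower with MYCN on in G9577 and higher in 3 of the other 4 lines, and the difference of the changes was -4.15 on the log2 scale (SE 0.60, adjusted p = 0.0205). Over all 5 lines its fitted change was therefore close to 0, at 0.21 (SE 0.81, adjusted p = 0.862). Lama5 likewise had a change of -0.24 in G9577 and of 1.25, 0.93, 1.73 and 1.43 in the other 4 lines (difference -1.58, SE 0.32, adjusted p = 0.0363).

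The integrin subunits among the 10 were Itgb5, Itga10 and Itga11. Itgb5, a vitronectin receptor subunit, was at 92.01 CPM on and 509 CPM off in G9577, and at 3.12, 2.17, 0.186 and 1.05 CPM on against 3.09, 1.41, 0.197 and 0.431 CPM off elsewhere (difference -2.89, SE 0.40, adjusted p = 0.0175). The collagen receptor subunit Itga10 was at 14.0 CPM on and 77.6 CPM off in G9577, while its changes in the other lines lay between -0.50 and 0.27 (adjusted p = 0.0345). Itga11 had 0 counts on and 33 off in G9577 (adjusted p = 0.0427). Of the others, Col8a2, Col4a4, Col1a1, Col11a1 and Lamb2 differed by -4.99, -4.55, -4.55, -2.73 and -1.68 on the log2 scale, with adjusted p of 0.0175, 0.0227, 0.0438, 0.0236 and 0.029. For Col8a2, Col4a4 and Col1a1 the other lines had few counts, at most 22 in a library, so that their own changes are poorly measured. Besides the loss without G9351, the calls for Lama5, Itga10, Lamb2 and Col1a1 were lost without G9488 or without G9529, and those for Col4a4 and Itga11 without G9488. With library size alone the calls for Lama5, Itga11 and Col1a1 were lost, and DESeq2 did not call Col1a1.

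**Figure D5:**
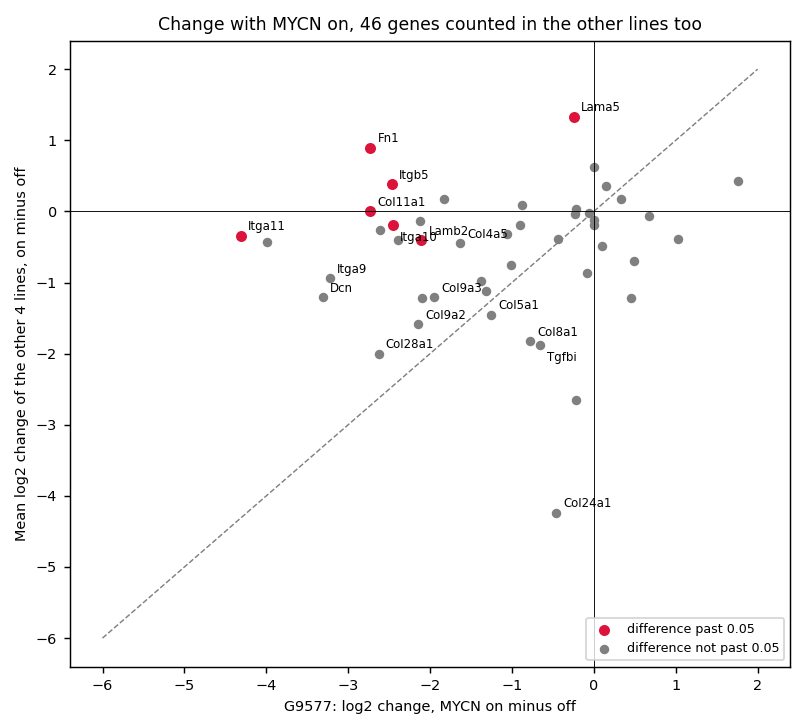
Each point is 1 of the 46 genes that pass the filter without G9577, with its log2 change (MYCN on minus off) in G9577 on the horizontal axis and the mean of the other 4 lines on the vertical axis; the dashed line marks equal change, and red marks a difference past 0.05. Fn1, Itgb5 and Lama5 lie above the horizontal zero line and left of the vertical one, and Col24a1 lies low, near 0 for G9577.

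Genes that process and surround the matrix were followed through lists made with earlier results known, beside a background of 15.1% of all genes lower and 14.0% higher with MYCN on. Of 24 tested helpers of collagen folding, cutting and crosslinking, 4 fell with MYCN on (16.7%, near the background) and 1 rose. Among the 4, P4ha3 and Loxl4 had at most 6 and 5 counts in any library of a line other than G9577. The crosslinking enzyme gene Lox was at 1.27, 0, 0.186, 0.0953 and 25.95 CPM on against 11.99, 0, 0.295, 0.689 and 220 CPM off (log2 change -2.90, SE 0.37, adjusted p = 0.00467), and the collagen glycosyltransferase gene Colgalt1 rose by 0.60 (SE 0.14, adjusted p = 0.0197). Of 38 other matrix glycoproteins and proteoglycans, 13 fell (34.2%) and 1 rose. Among them were Thbs1 (thrombospondin, -2.69, adjusted p = 0.00572) and Tnc (tenascin C, -3.08, adjusted p = 0.00323). Tnc was followed in G9577 alone, with 670 counts on and 5104 off and at most 3 counts in any other library. The same limit held for Ltbp2, Spp1, Bgn, Fmod and Ogn, also among the 13 that fell. They had at most 3, 5, 5, 2 and 8 counts in any library of another line. Of 27 proteases and inhibitors, 8 fell (29.6%).

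Serpine2, an inhibitor of thrombin and plasminogen activators, was at 271, 183, 168, 222 and 282 CPM on against 1305, 415, 318, 655 and 875 CPM off in G4314, G9351, G9488, G9529 and G9577. It fell in all 5 lines and did not depend on G9577 for its level (log2 change -1.51, SE 0.20, adjusted p = 0.00416). Of 16 TGF-beta genes, 7 fell (43.8%, against 15.1% of all genes). Among the 7, Ctgf was followed in G9577 alone, with 894 counts on and 5279 off and at most 8 in any other library. The ligand gene Tgfb3 was at 34.7, 38.7, 40.3, 22.4 and 59.0 CPM on against 78.6, 111, 52.2, 82.8 and 186 CPM off (log2 change -1.33, SE 0.23, adjusted p = 0.00766), lower in each line. Of 33 adhesion genes and other matrix receptors, 6 fell (18.2%, against 15.1% of all genes) and 2 rose (6.06%, against 14.0%), including Parva, a link from integrins to actin (-1.10, adjusted p = 0.00434), and Ddr1, a collagen receptor kinase (-1.03, adjusted p = 0.00643). Of 11 mesenchymal transcription factors, 3 fell (27.3%, against 15.1% of all genes), Tcf4 (-0.69, adjusted p = 0.0095), Runx2 (-1.99, adjusted p = 0.0285) and Sox9 (-2.35, adjusted p = 0.0425). Outside G9577 Sox9 had at most 3 counts and Runx2 at most 16, against 267 on and 2109 off for Sox9 and 519 on and 2403 off for Runx2 in G9577.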

How the data were processed

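RNA of 10 libraries was analysed from the raw counts of reads per gene that the authors deposited, 1 file per library. Per the file headers, counts were made with featureCounts 1.6.0 from UCSC iGenomes gene models for mm9, without strand and with no option for reads that map or overlap in several places. Demultiplexing used bcl2fastq 1.8.4 and alignment STAR 2.5.2a, per the submitters' processing notes. Unstranded counting means that bases shared by exons of 2 genes, as between Itga7 and Mettl7b, Itga4 and Cerkl, Col9a3 and Tcfl5 or Itga8 and E030013I19Rik, are not counted or cannot be told apart. No batch term was fitted, since the 10 file headers point to a single sequencing run.

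Genes were kept with edgeR's filterByExpr by line (minimum count 10), which left 14456, and were scaled with TMM factors. Tests were edgeR 4.0.16 quasi-likelihood F tests in R 4.3.3, two-sided, called at 0.05 after Benjamini-Hochberg adjustment over the genes tested, and every adjusted p is from these unless another tool is named. There were 3 fits: doxycycline with the line as block (4 residual degrees of freedom), G9577 against the other lines on counts summed per line (3), and doxycycline by G9577 (3). SE is the log2 change over the square root of F. Within a line, a change is the log2 CPM (prior count 2) of the on library minus that of the off library, and RPKM is scaled CPM per exon length.

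On and off libraries of a line pair by the labels: their deviations from the group means correlated with r of 0.734 to 0.89, and with another line by at most 0.275. Alternatives were no replicate block, DESeq2 1.42.0, limma-voom (limma 3.58.1), library size alone, RLE scaling, other filters, on or off libraries alone, and each line left out. Named genes were Fn1, Sparc, Col1a1, Col5a1, Vim, Dcn and Tgfbi, up to 20 members called for doxycycline, up to 10 called for the interaction, the 12 highest per length in G9577 and the 8 highest in the other lines, and up to 4 of each other list. Other genes that appear were picked with their values known. The members and lists were chosen with earlier results of these data known. Some genes are not reported here by name and remain in the counts and sums.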

Additional observations from a re-analysis of the deposited data

Results flagged for a closer look

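In 32 of 72 sets of 5 libraries, 1 for each named member with MYCN on and 1 with MYCN off, a single library lay far from the other 4, and in all 32 it was the library of G9577. The gap to the nearest other library was over 0.71 of the whole range, a limit that chance passes in about 1 of 20 groups. Many of these members were named for their level in G9577 or passed the filter only through it, so the number is not to be read against that rate. The log2 CPM of G9577 with MYCN on and with MYCN off was far above the rest for Sparc (10.15 and 11.01), Vim (10.65 and 12.06), Col6a1 (7.13 and 10.81), Col2a1 (5.64 and 7.85), Col14a1 (1.01 and 6.65) and Itgb3 (4.40 and 8.07). The same held, in the same order of on and off, for Itga8 (4.21 and 7.95), Col15a1 (1.14 and 6.63), Col8a2 (2.04 and 9.01), Col6a2 (5.77 and 9.67), Col12a1 (6.75 and 10.24), Itgb1 (11.90 and 12.11) and Lamc1 (8.90 and 9.95). With MYCN on alone it did so for Col5a1 (7.75) and Itga3 (8.73). With MYCN off alone it did so for Fn1 (13.27), Col1a1 (9.06), Col4a4 (5.63) and Lamb2 (10.25). Each of these values is of 1 library.

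The response to MYCN differed between G9577 and the other 4 lines for 10 members by the interaction test. The differences in log2 change, G9577 minus the others, were Itgb5 (-2.89), Col8a2 (-4.99), Fn1 (-4.15), Col4a4 (-4.55), Col11a1 (-2.73), Lamb2 (-1.68), Itga10 (-2.28), Lama5 (-1.58), Itga11 (-7.72) and Col1a1 (-4.55). Without G9351 none of the 10 passed in edgeR's test, in which 4 members were then higher and 18 lower at an unadjusted p under 0.05.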

How the results depend on the processing

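Log2 changes below are MYCN on minus off, or G9577 minus the other lines. The number of members lower with MYCN on was 22, and it was 0 with no replicate block, 10 when genes were filtered by doxycycline group (39 members tested) and 10 to 20 with 1 line left out. The number higher was 1, and it was 0 with no replicate block and 0 to 1 with 1 line left out. In edgeR's test with no replicate block, 0 were higher and 4 lower at an unadjusted p under 0.05, and DESeq2 with the block called 1 higher and 20 lower. Members lower in G9577 were 0, but 6 in DESeq2 and 0 to 2 with 1 of the other lines left out. Members whose response differed in G9577 were 10, but 17 in DESeq2 and 0 to 16 with 1 line left out. Signs turned round for genes not called. For MYCN these were Fn1 (-2.71 with no replicate block, -1.47 in limma-voom, -0.58 to 1.22 with 1 line left out, with -0.16 without G4314), and with 1 line left out Col11a1 (-1.13 to 0.0035), Itgb5 (-0.82 to 0.48), Itgb1 (-0.0641 to 0.0478), Col4a1 (-0.11 to 0.27) and Col4a2 (-0.12 to 0.0429). For G9577 against the other lines these were Col4a1 (-0.12 with library size alone, -0.32 in off libraries only, -0.0772 to 0.21 with 1 line left out), Dcn (-2.23 in on libraries only) and Itga11 (-6.20 in on libraries only). The cause was not tested. The all-gene median for doxycycline moved little with scaling: -0.12 with TMM, -0.16 with RLE and -0.13 with library size alone. In the same order it was -0.05, -0.04 and -0.22 for G9577 against the other lines. For the interaction it was -0.21, -0.12 and -0.03, with 10, 10 and 7 members called. Depth limits what can be said outside G9577 of the 27 members with under 10 counts in every library of the other lines.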

Other observations

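Several genes that act on collagen were uneven in G9577. Pcolce, the enhancer of procollagen C-terminal cutting, was at 528 CPM (on) and 1045 CPM (off) there, and at most 0.97 CPM in any other library. Serpinh1, the collagen chaperone, was at only 4.29 and 1.95 CPM in G9577, although Col1a1 was at 41.5 and 532 CPM. Prolyl hydroxylase subunit gene P4ha3 was at 35.6 and 247 CPM in G9577 and at most 0.562 CPM elsewhere, while P4ha1 was at 87.6 and 117 CPM against 40.1 to 81.7 CPM. Fibromodulin (Fmod), a proteoglycan that binds collagen fibrils, had 52 counts on and 10271 off in G9577 and at most 2 in any other library. Its fold between on and off was larger than that of Col8a2, at 43 and 4779 counts in G9577. Postn, a matricellular protein of fibroblasts, had 120 counts on and 10895 off in G9577.

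Col23a1 and Col27a1 were not tested, because a single library held nearly all of their counts: Col23a1 had 155 counts and Col27a1 159 counts in G9577 with MYCN off, against 10 and 5 counts in G9577 with MYCN on. Itgb2l had 42 counts in G4314 with MYCN off and 0 in both G9577 libraries.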
